A study of Mus musculus with 6 samples.

Results

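CXC chemokines are small secreted proteins that steer the movement of white blood cells, and their genes were followed in bulk RNA of antral stomach mucosa from mice without the gland mucin MUC6 and from wild-type mice. The group was chosen by name, as the genes Cxcl1, Cxcl2, Cxcl5, Cxcl9, Cxcl10, Cxcl12, Cxcl13, Cxcl14, Cxcl16 and Cxcl17, which are 10 of the 34866 genes in the deposited table. The tested group held 3 libraries of Muc6-/- mice, in which both copies of Muc6 are disrupted, and the comparison group held 3 libraries of Muc6+/+ (wild-type, WT) mice, all from antral mucosa with no treatment named. Strain, age and the way Muc6 was disrupted were not in the sources used. The study, by its design text, asks whether Muc6 and the development of gastric cancer are linked, and the Muc6-/- mice were generated for it. Levels are CPM (counts scaled for library size and composition), changes are log2 fold changes of Muc6-/- over WT with their standard error (SE), and n = 3 libraries per genotype throughout.

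The family divides by the leukocytes it calls. Cxcl1, Cxcl2 and Cxcl5 encode ligands of the receptor CXCR2 and attract neutrophils, and their genes are switched on by interleukin 1, tumour necrosis factor and bacterial products through NF-kappaB. Cxcl9 and Cxcl10 encode interferon-induced ligands of CXCR3, the receptor of activated T and NK cells. The others act more in resting tissue: CXCL12 binds CXCR4, CXCL13 draws B cells through CXCR5, CXCL16 is a membrane-anchored ligand of CXCR6, CXCL14 is made by epithelia and stroma, and CXCL17 is a secreted protein of mucosal surfaces.

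Most of the inflammatory members lie in a cluster on chromosome 5. Cxcl1 and Cxcl2, and Cxcl3, a further neutrophil attractant of the cluster, had almost no reads in WT mucosa and were higher in Muc6-/- mucosa. The bases before their start sites are shown for these 3 genes, which were chosen after a motif search given below. These bases were taken from RefSeq promoter windows on GRCm38.p6, which were found for 7 of the 10 members (not for Cxcl5, Cxcl16 and Cxcl17). Each covers the 250 bases before the RefSeq start site on the plus strand, which lies inside the GENCODE span of Cxcl1 and Cxcl2 given below, 5′ to 3′, at chr5:90890995-90891244 for Cxcl1, chr5:90903649-90903898 for Cxcl2 and chr5:90785851-90786100 for Cxcl3. Capitals mark the longest stretch that the 3 sequences share.
Cxcl1: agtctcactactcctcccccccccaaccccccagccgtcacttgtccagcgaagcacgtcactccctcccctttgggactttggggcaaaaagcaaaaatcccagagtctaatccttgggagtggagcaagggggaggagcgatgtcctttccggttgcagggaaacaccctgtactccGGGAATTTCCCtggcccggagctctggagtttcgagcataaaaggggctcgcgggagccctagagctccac
Cxcl2: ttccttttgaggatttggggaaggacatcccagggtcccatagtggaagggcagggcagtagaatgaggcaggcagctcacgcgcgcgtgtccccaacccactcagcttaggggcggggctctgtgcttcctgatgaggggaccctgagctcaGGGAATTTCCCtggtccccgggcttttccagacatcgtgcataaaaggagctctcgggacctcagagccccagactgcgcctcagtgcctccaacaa
Cxcl3: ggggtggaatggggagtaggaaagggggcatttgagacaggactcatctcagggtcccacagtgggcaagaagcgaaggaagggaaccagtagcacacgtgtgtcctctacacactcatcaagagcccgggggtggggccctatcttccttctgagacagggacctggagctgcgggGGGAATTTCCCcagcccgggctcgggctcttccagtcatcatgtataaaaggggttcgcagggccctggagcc
The shared stretch is 11 bases long, GGGAATTTCCC, and begins 71, 97 and 73 bases before the RefSeq start sites of Cxcl1, Cxcl2 and Cxcl3. It was found by comparing the 3 sequences with each other. The genes and the limit to bases before the start were chosen after a search of these windows for NF-kappaB and interferon response motifs, and an NF-kappaB form from that search lies within the stretch, so its rarity is a description of a stretch already seen. On either strand the whole stretch stands in 14 of 32851 mouse windows of this length (0.0426%), these 3 included, and in none of the other 5 members with a window. Parts of the stretch were not counted. The Cxcl10 window holds gggaaattcc, which on the other strand is the stretch without its first base. The Cxcl9 window holds gaaattccc, a shorter part on the other strand. These matches describe letters and are no measurement of binding.

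Muc6 itself was at 0.0425, 0 and 0 CPM in the Muc6-/- libraries, against 396, 403 and 510 CPM in the WT libraries, as the labels have it. The Y-linked gene Ddx3y was at 39.3 to 41.1 CPM in Muc6-/- libraries, against 0.058 to 0.326 CPM in WT libraries, so sex and genotype cannot be told apart in any difference below. Library totals lay between 19839799 and 21354029 counts, where 1 count is worth 0.0416 to 0.058 CPM. Antral gland marker Tff2 was abundant in all libraries (12800 to 17600 CPM in Muc6-/-, 4700 to 6870 CPM in WT), and 5 pancreatic acinar genes summed to at most 0.928 CPM in any library. Markers of other cell types differed between the genotypes. The hormone gene Gast was at 9.52 to 24.8 CPM in Muc6-/- and 762 to 1200 CPM in WT. The 3 parietal markers summed to 0.85 to 4.98 CPM in Muc6-/- and 14.5 to 278 CPM in WT. The 5 forestomach squamous markers summed to 16.3 to 87.4 CPM in Muc6-/- and 4.17 to 8.53 CPM in WT. Most of this was Krt13, at 12.2 to 76.5 CPM in Muc6-/- and 3.94 to 8.15 CPM in WT. Krt5 and Trp63, of the same list, were at most 0.567 and 0.291 CPM in any library. Whether the tissue pieces matched was not tested. Library 1 of each genotype stood apart from libraries 2 and 3 on the second principal component, at 35.6 for Muc6-/- and 47.6 for WT against -32.7 to -13.5 for the other 4.

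Most of the tested chemokine genes were higher in Muc6-/- mucosa, with the largest fitted rises for Cxcl1, Cxcl2 and Cxcl5, which had almost no reads in WT. Cxcl9 and Cxcl13, also scarce in WT but not tested, had ratios of summed counts of 11.7 and 3.03, below the 14.7 of Cxcl14. Of the 10 members, 8 had enough counts to be tested, and 7 of these were higher in Muc6-/- libraries by edgeR's two-sided quasi-likelihood test at an adjusted p under 0.05 (Cxcl1, Cxcl2, Cxcl5, Cxcl10, Cxcl14, Cxcl16 and Cxcl17). Of all 14017 genes tested, 19.3% were higher and 19.2% were lower (2699 and 2687 genes), a split that became 5730 higher and 1091 lower when libraries were scaled by total counts alone. The eighth, Cxcl12, did not pass, and no member was lower by edgeR, DESeq2 or limma-voom, nor in the edgeR fit at an unadjusted p under 0.05. The median log2 fold change of the 8 was 3.51, beside 0.02 for all genes tested. Cxcl1, Cxcl2 and Cxcl5 reached the count filter through Muc6-/- libraries alone, so their presence among the tested genes already required a difference. Both the count of 7 and the median of 3.51 include these genes, so neither can be set against all genes tested as an unselected measure. The Muc6-/- and WT libraries did not overlap for 8 of the 10 members, all higher in Muc6-/-. Among tested genes 28.2% showed this pattern, while 26.6% showed the reverse, lower in all Muc6-/- libraries. The count of 8 also includes Cxcl1, Cxcl2 and Cxcl5, and Cxcl13, which was not tested. It too cannot be set against the share of tested genes as an unselected measure. The count of 7 was 4 without WT library 2 or WT library 3 and 3 with limma-voom, and it was 7 without both libraries numbered 1.

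**Figure D1:**
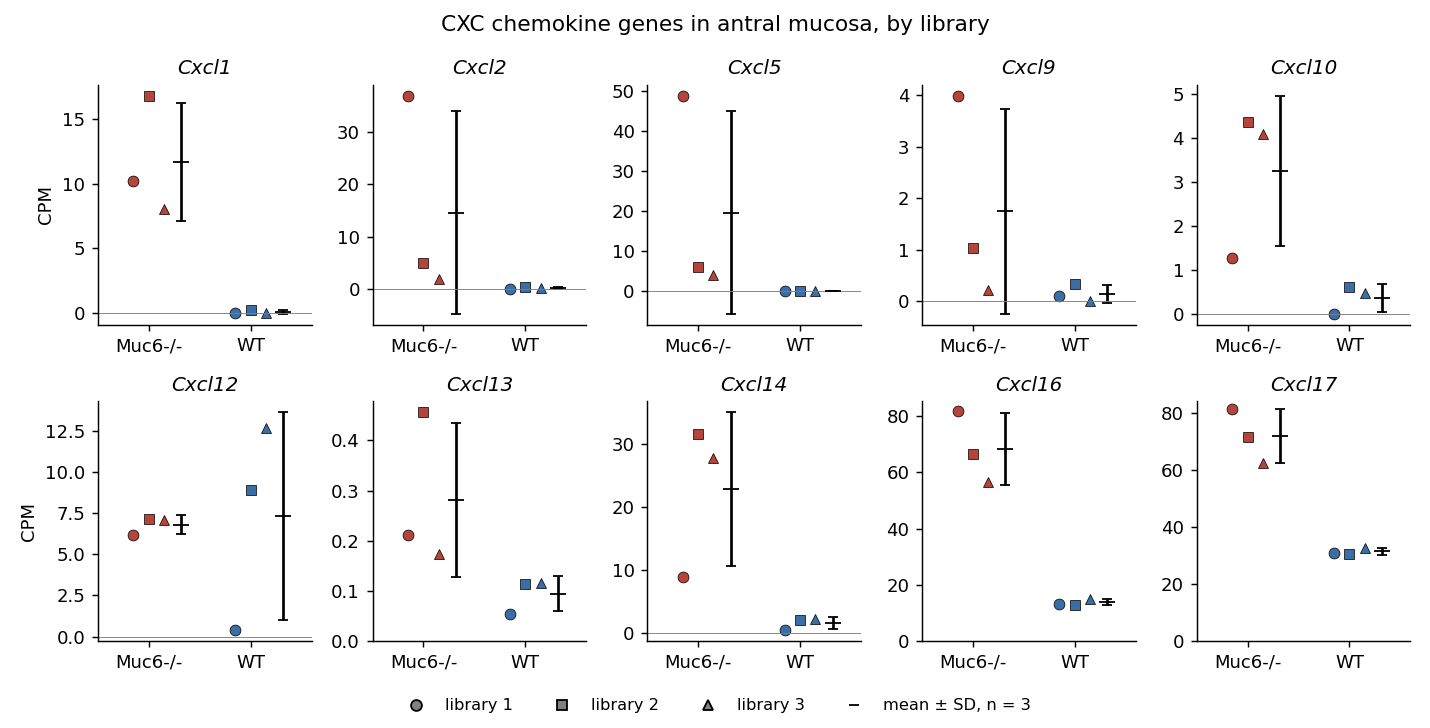
CPM (y axis, linear, own scale per panel) of the 10 CXC chemokine genes in each Muc6-/- and WT library, with symbols for library number and bars for mean ± SD (n = 3). Library 1 of Muc6-/- is far above the other libraries for Cxcl2 (37.0 CPM), Cxcl5 (48.8 CPM) and Cxcl9 (3.99 CPM) but not for Cxcl1, Cxcl10 or Cxcl14, while Cxcl16 and Cxcl17 are tightly grouped within each genotype.

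Among the neutrophil attractants, Cxcl1 rose evenly over the Muc6-/- libraries. The gene (ENSMUSG00000029380.11, chromosome 5, 90891241 to 90893115, plus strand, mm10) was at 10.2, 16.8 and 8.07 CPM in Muc6-/- libraries 1 to 3, against 0, 0.225 and 0 CPM in WT libraries 1 to 3. Every Muc6-/- library was above every WT library, and WT held 4 counts in all. The log2 fold change was 7.17 (SE 0.86, adjusted p = 0.00135), and the ratio of summed counts was 157 with a 95% interval of 61.0 to 577. Intervals of count ratios cover counting error only. All 4 WT counts were in WT library 2, and without it the fitted value was 10.96. The call held under all 15 alternatives run, with adjusted p up to 0.00825. In bulk tissue, more cells that make a transcript and more transcript per cell cannot be told apart, here and for every gene below.

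Cxcl2 and Cxcl5 rose most in a single Muc6-/- library. Cxcl2 (chromosome 5, 90903871 to 90905938, plus strand) was at 37.0, 4.99 and 1.88 CPM in Muc6-/- libraries 1 to 3, against 0, 0.338 and 0.116 CPM in WT. Cxcl5 (chromosome 5, 90759360 to 90761624, plus strand), whose product is also called LIX in the mouse, was at 48.8, 6.07 and 4.01 CPM in Muc6-/-, against 0, 0.112 and 0 CPM in WT. For both genes the groups did not overlap, and Muc6-/- library 1 held most of the signal, 84.4% of the summed Muc6-/- CPM for Cxcl2 and 82.9% for Cxcl5, against 29.0% for Cxcl1. The log2 fold change of Cxcl2 was 6.55 (SE 1.68, adjusted p = 0.031). Cxcl5 had 2 counts in WT against 1387 in Muc6-/-, a ratio of 525 (95% interval 145 to 4340, edgeR adjusted p = 0.0165). Without Muc6-/- library 1 both were still called by edgeR, at 4.46 (adjusted p = 0.0138) for Cxcl2 and 6.86 (adjusted p = 0.00215) for Cxcl5. The call of Cxcl2 ended without Muc6-/- library 2 or any 1 WT library (edgeR adjusted p 0.0515 to 0.106), with no count filter (0.079) and with limma-voom (0.311). That of Cxcl5 ended without any 1 WT library (0.0655 to 0.0944) and with limma-voom (0.215).

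The unequal split of Cxcl2 and Cxcl5 ran alongside that of neutrophil transcripts. The 8 neutrophil markers summed to 178, 3.95 and 4.84 CPM in Muc6-/- libraries 1 to 3, against 0.218, 0.675 and 0.696 CPM in WT libraries 1 to 3. S100a8 and S100a9, the calprotectin subunits that fill neutrophil cytoplasm, were at 60.0 and 89.6 CPM in Muc6-/- library 1, against 0.654 to 1.96 CPM in Muc6-/- libraries 2 and 3 and at most 0.116 CPM in WT. Ly6g and Ngp, which mark mouse neutrophils, had counts in Muc6-/- library 1 (1.32 and 2.85 CPM) and were at 0 in the other 5 libraries. Elane, of immature neutrophils, was at 0 in all 6, and Mpo was at most 0.109 CPM. Of the 8 markers 4 could be tested and 1, Csf3r, was called higher (edgeR adjusted p = 0.026). Csf3r reached the count filter through Muc6-/- libraries alone, so its being tested already required a difference. The part of these cells in the rise of Cxcl2 and Cxcl5 was not tested.

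**Figure D2:**
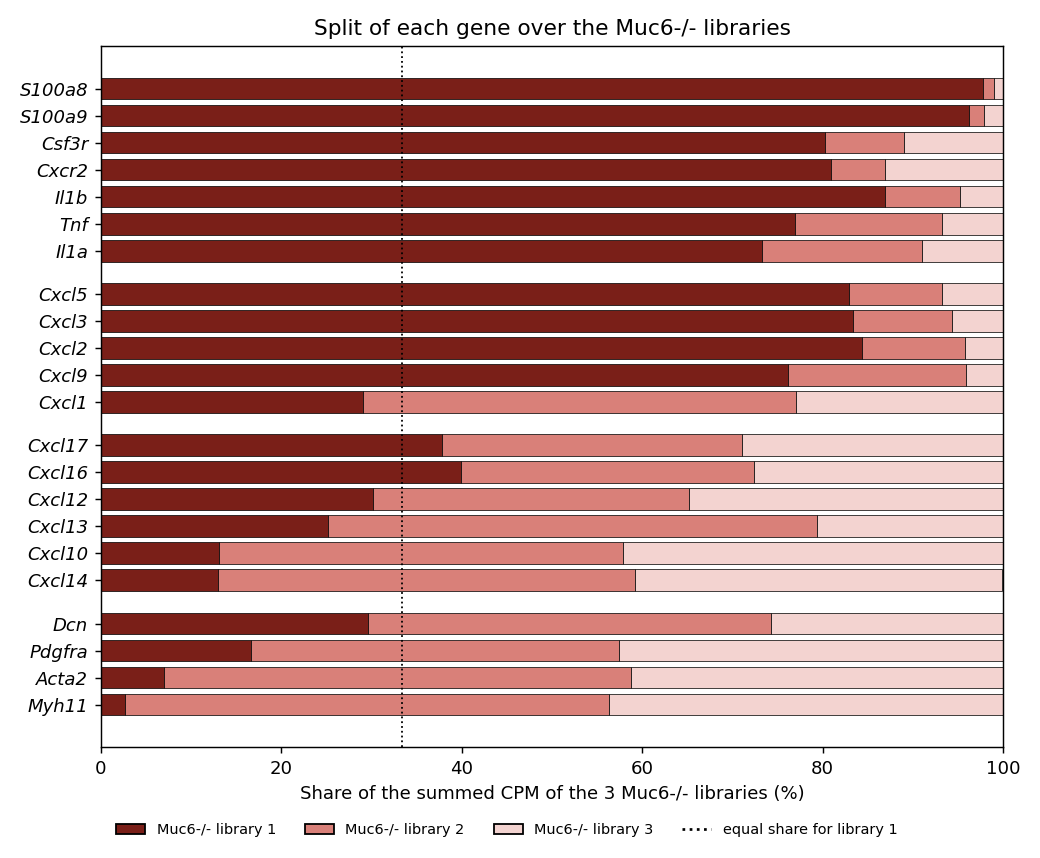
Share (%) of the summed CPM of the 3 Muc6-/- libraries that each library holds, per gene, with neutrophil and cytokine genes at the top, then neutrophil attractants with Cxcl9, then the other members, then stromal markers. Library 1 holds 84.4% of Cxcl2, 82.9% of Cxcl5 and 97.8% of S100a8, but 29.0% of Cxcl1 and 13.0% of Cxcl14, and the dotted line marks an equal split.

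The interferon-induced ligands were scarce. Cxcl10 (chromosome 5, 92346638 to 92348889, minus strand) was at 1.28, 4.36 and 4.10 CPM in Muc6-/- libraries 1 to 3, against 0, 0.619 and 0.464 CPM in WT. The groups did not overlap, and library 1 was the lowest of its genotype in both, the reverse of Cxcl2 and Cxcl5 in Muc6-/-. The log2 fold change was 3.16 (SE 0.96, edgeR adjusted p = 0.0366), and the call ended without Muc6-/- library 2 or 3 or WT library 2 or 3 (adjusted p 0.0792 to 0.106) and with limma-voom (0.0622). Cxcl9 (chromosome 5, 92321347 to 92328079, minus strand) was at 3.99, 1.04 and 0.218 CPM in Muc6-/-, against 0.109, 0.338 and 0 CPM in WT, so the groups overlapped, and it had too few counts to be tested. Where an alternative did test Cxcl9, it was called higher without Muc6-/- library 3 (edgeR adjusted p = 0.0364) and not with no count filter (0.0854) or without any 1 WT library (0.0934 to 0.166). The T and NK cell markers, whose cells carry CXCR3, summed to 2.59 to 3.71 CPM over 7 genes in Muc6-/- and 0.281 to 0.522 CPM in WT, and their part was not tested. Art3 overlaps Cxcl10 on the opposite strand, and no source used here says whether counting used the strand. Art3 was at 0.51 to 2.87 CPM in Muc6-/- and 0.924 to 11.9 CPM in WT.

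Cxcl16 and Cxcl17 were the most abundant members, and their libraries lay close together within each genotype. Cxcl16 (ENSMUSG00000018920.11, chromosome 11, 70453983 to 70459984, minus strand) was at 81.7, 66.6 and 56.5 CPM in Muc6-/-, against 13.2, 13.0 and 15.0 CPM in WT. The gap between the genotypes was wider than the spread within either, at 68.3 ± 12.7 CPM in Muc6-/- and 13.8 ± 1.10 CPM in WT (mean ± SD, n = 3 each), with a log2 fold change of 2.31 (SE 0.16, edgeR adjusted p = 0.000241). Cxcl17 (ENSMUSG00000060188.6, chromosome 7, 25400053 to 25412886, minus strand) was at 81.5, 71.7 and 62.6 CPM in Muc6-/-, against 31.1, 30.7 and 32.8 CPM in WT, a log2 fold change of 1.19 (SE 0.12, edgeR adjusted p = 0.000657). Both calls held under all 15 alternatives, with adjusted p up to 0.0037 for Cxcl16 and 0.00611 for Cxcl17. Zmynd15, which overlaps Cxcl16 on the opposite strand, was at 1.08 to 1.78 CPM in Muc6-/- and 0.113 to 0.29 CPM in WT, far below Cxcl16. Macrophage markers, of cells that can also make CXCL16, summed to 93.0 to 116 CPM over 7 genes in Muc6-/- and 11.1 to 85.7 CPM in WT, and none of the 7 passed the edgeR test, with 2 at an unadjusted p under 0.05. The 4 surface mucous cell markers summed to 37300 to 47700 CPM in Muc6-/- and 157000 to 181000 CPM in WT, the reverse of Cxcl17, while the 3 gland mucous markers, all called higher by edgeR, summed to 12900 to 17800 CPM in Muc6-/- and 4750 to 6930 CPM in WT. The part of these cell types was not tested.

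Cxcl14 rose in Muc6-/- mucosa and Cxcl12 did not pass, and both were lowest in library 1 of each genotype. Cxcl14 (chromosome 13, 56288643 to 56296551, minus strand) was at 8.88, 31.6 and 27.8 CPM in Muc6-/- libraries 1 to 3, against 0.435, 2.08 and 2.20 CPM in WT libraries 1 to 3. Library 1 was the lowest of each genotype, yet the groups did not overlap, and the log2 fold change was 3.86 (SE 0.74, edgeR adjusted p = 0.0107), with a call that ended with limma-voom alone (0.0699). Cxcl12 (chromosome 6, 117168535 to 117181367, plus strand) was at 6.16, 7.15 and 7.11 CPM in Muc6-/-, against 0.38, 8.89 and 12.7 CPM in WT. WT library 1 was far below the other 5 libraries, the groups overlapped, and the log2 fold change was -0.10 (SE 0.98, edgeR adjusted p = 0.944), which turned to 0.31 with total-count scaling. Without WT library 1 Cxcl12 was lower in Muc6-/-, at -0.67 (edgeR adjusted p = 0.0425), and without both libraries numbered 1 it did not pass, at -0.62 (0.0513). The 6 fibroblast markers summed to 389, 510 and 427 CPM in Muc6-/-, against 44.6, 580 and 716 CPM in WT libraries 1 to 3, and the 5 smooth muscle markers to 66.5, 855 and 626 CPM in Muc6-/-, against 191, 1380 and 2890 CPM in WT. None of these 11 markers passed the edgeR test, nor did any reach an unadjusted p under 0.05, and the part of stromal cells in the values of Cxcl12 and Cxcl14 was not tested.

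Cxcl13, the B cell attractant (chromosome 5, 95956951 to 95961068, plus strand), was close to the detection limit, with 5, 11 and 4 counts in Muc6-/- libraries and 1, 2 and 2 counts in WT libraries. It was at 0.212, 0.457 and 0.174 CPM in Muc6-/-, against 0.0543, 0.112 and 0.116 CPM in WT. The groups did not overlap, the ratio of summed counts was 3.03 (95% interval 1.10 to 10.3), and it was tested with no count filter only, where it did not pass (edgeR adjusted p = 0.3). The 5 B cell markers summed to 1.37 to 2.49 CPM in Muc6-/- and 0.788 to 1.63 CPM in WT.

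**Figure D3:**
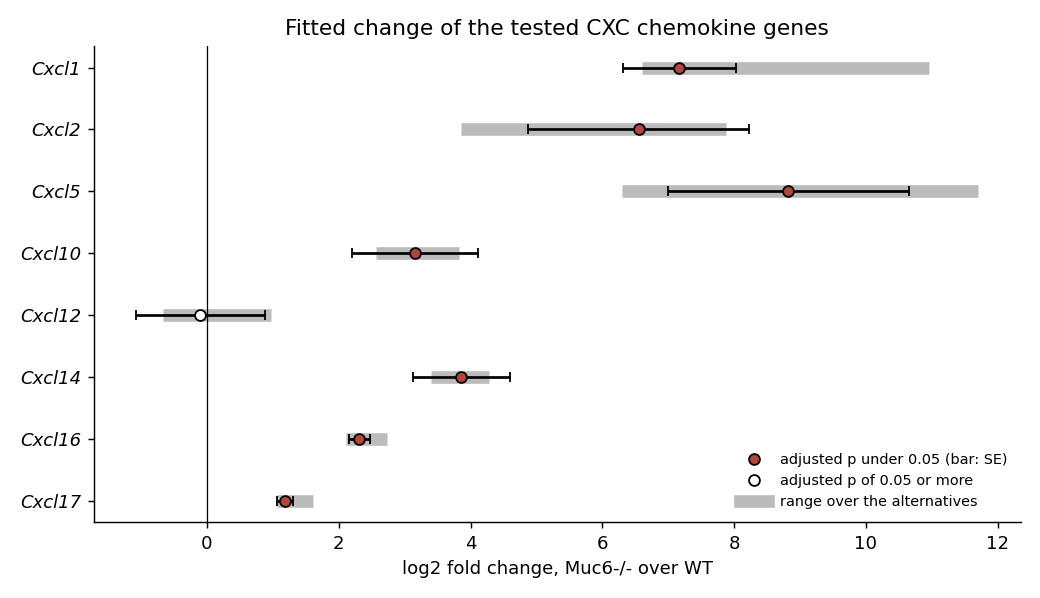
Log2 fold change of Muc6-/- over WT (x axis) for the 8 tested CXC chemokine genes, with SE as the black bar and the range over the 15 alternatives in grey. The 7 called members lie between 1.19 (Cxcl17) and 8.82 (Cxcl5), and the grey range of Cxcl12 alone crosses 0. Fitted values above 6 rest on 2 to 8 counts in WT and depend on the small count that the fit adds.

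Per kilobase of exon, the order of levels differed between the genotypes below the top of the list. In Muc6-/-, Cxcl17 led at 94.5 CPM per kilobase (82.3 to 107 over the libraries), before Cxcl16 at 22.6 (18.7 to 27.0), and neither overlapped the next member in order, though the highest library of Cxcl5 (26.2) lay within the range of Cxcl16. Cxcl14 (12.5), Cxcl5 (10.5), Cxcl2 (7.07) and Cxcl1 (6.22 CPM per kilobase) followed with ranges that overlapped, and among them Cxcl1 was above Cxcl5 and Cxcl2 in Muc6-/- libraries 2 and 3 and below both in library 1. Next came Cxcl10 (1.44), Cxcl12 (0.832), Cxcl9 (0.58) and Cxcl13 (0.245), of which each also overlapped its neighbour. In WT the top was again Cxcl17 at 41.4 CPM per kilobase (40.4 to 43.1) and Cxcl16 at 4.55 (4.32 to 4.97), followed by Cxcl12 (0.896) and Cxcl14 (0.861), whose ranges overlapped. The other 6 members were between 0.0201 (Cxcl5) and 0.16 CPM per kilobase (Cxcl10) in WT.

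Of the remaining CXC ligand genes, Cxcl3 was called higher, Pf4 did not pass and 3 had too few counts to be tested. Among all tested genes 19.3% were higher. Cxcl3 reached the count filter through Muc6-/- libraries alone, so its being tested already required a difference. Cxcl3, which encodes another CXCR2 ligand, was at 30.7, 4.07 and 2.09 CPM in Muc6-/- libraries 1 to 3, against 0, 0.225 and 0 CPM in WT, with a log2 fold change of 7.25 (SE 1.73, edgeR adjusted p = 0.0236) that lost its call without any 1 WT library (0.0866 to 0.0995), with no count filter (0.0646) and with limma-voom (0.201). Its split over the libraries, with 83.3% of the Muc6-/- sum in library 1, was close to those of Cxcl2 and Cxcl5. Transcripts of Cxcl2 and Cxcl3 share 126 words of 50 bases, of 2159 in Cxcl2 and 3587 in Cxcl3, so a small part of their reads could be assigned to either, and no other pair among the 15 CXC genes listed shared any. Pf4, the platelet ligand also called CXCL4, was at 1.44, 1.04 and 1.92 CPM in Muc6-/- and 0.163, 0.787 and 0.754 CPM in WT and did not pass (edgeR adjusted p = 0.118), though it did with total-count scaling (0.0473). Cxcl15, the lung ligand called lungkine, had no counts in Muc6-/- against 8, 17 and 8 counts in WT libraries, at least 14.5-fold lower in Muc6-/- against a floor of 3 counts over the group, and with no count filter it was called lower (edgeR adjusted p = 0.00594). Ppbp and Cxcl11 (annotated as a polymorphic pseudogene) had 44 and 9 counts in Muc6-/- and 3 and 1 counts in WT. With no count filter Ppbp was called higher (edgeR adjusted p = 0.0321) and Cxcl11 did not pass (0.325).

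Genes of CXC receptors and of atypical chemokine receptors, not all of them receptors of these ligands, were present at low levels. Of 10 such genes 6 were tested, 3 rose and 3 did not pass, where 19.3% of all tested genes were higher. Cxcr6 and Ackr1, 2 of the 3 that rose, reached the count filter through Muc6-/- libraries alone, so their being tested already required a difference. Cxcr4, the receptor of CXCL12, was at 8.16, 13.0 and 12.8 CPM in Muc6-/-, against 4.62, 3.43 and 3.25 CPM in WT (log2 fold change 1.59, SE 0.26, edgeR adjusted p = 0.00378). Cxcr6, the receptor of CXCL16, was at 0.977, 0.54 and 0.698 CPM in Muc6-/-, against 0, 0 and 0.058 CPM in WT, 52 counts against 1, a ratio of 39.4 (95% interval 6.76 to 1590, edgeR adjusted p = 0.00647). Ackr1, which binds inflammatory chemokines on venules and red cells without signalling, rose by 3.83 (SE 0.80, edgeR adjusted p = 0.00902). The 5 endothelial markers summed to 52.2 to 81.6 CPM in Muc6-/- and 11.1 to 24.7 CPM in WT, 3 of them were called higher by edgeR (Pecam1, Tek and Eng), and their part in the value of Ackr1 was not tested. Cxcr2, the receptor of the neutrophil attractants, was at 6.20, 0.457 and 1.0 CPM in Muc6-/- libraries 1 to 3, against 0.217, 0.0562 and 0.638 CPM in WT. These groups overlapped, the gene did not pass (edgeR adjusted p = 0.082), and library 1 held 80.9% of its Muc6-/- sum, as it did for most of Cxcl2, Cxcl3 and Cxcl5. Cxcr3 and Cxcr5 had 11 and 8 counts in Muc6-/- and 0 and 1 in WT.

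The tested cytokine genes were also higher. Of 11 listed cytokine genes 5 were tested, and these rose (Il1a, Il1b, Tnf, Ltb and Il33). Tnf and Ltb reached the count filter through Muc6-/- libraries alone, and Il1a and Il1b through these and 1 WT library, so the count of 5 was in large part set by the filter and is not read against the 19.3% of all tested genes. Il1b was at 69.8, 6.69 and 3.84 CPM in Muc6-/- libraries 1 to 3, against 0, 0.675 and 0.406 CPM in WT (log2 fold change 6.21, SE 1.71, edgeR adjusted p = 0.0387). Il1a was at 36.1, 8.73 and 4.41 CPM in Muc6-/-, against 0.598, 0.506 and 0.522 CPM in WT (edgeR adjusted p = 0.0106), and Tnf at 5.48, 1.16 and 0.48 CPM, against 0, 0.169 and 0 CPM in WT (edgeR adjusted p = 0.0235). All 3 were led by Muc6-/- library 1, while Il33, an alarmin of epithelial and stromal nuclei, was even at 160, 148 and 193 CPM in Muc6-/-, against 37.4, 54.6 and 35.0 CPM in WT (log2 fold change 1.98, SE 0.20, edgeR adjusted p = 0.000631). The edgeR calls of Il1a (adjusted p 0.0508 to 0.056), Il1b (0.1 to 0.119) and Tnf (0.0557 to 0.0786) ended without any 1 WT library, and without Muc6-/- library 1 the log2 fold change of Il1b was 3.86 (0.0225). The call of Il1b also ended without Muc6-/- library 2 (0.0559) and with no count filter (0.096). The count of 5 was 2 without any 1 WT library, 3 with a filter of 1 CPM in 3 libraries and 2 with limma-voom. Il17a had 34 counts in Muc6-/-, 30 of them in library 1, and none in WT, and Ifng, the inducer of Cxcl9 and Cxcl10, had 4 counts in Muc6-/- and none in WT. Il17c had 3 counts in Muc6-/- and 6 in WT, and Il17f had 8 and 6. Lta had 9 counts in Muc6-/- and 2 in WT, and Csf3 had 24 and 1.

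**Figure D4:**
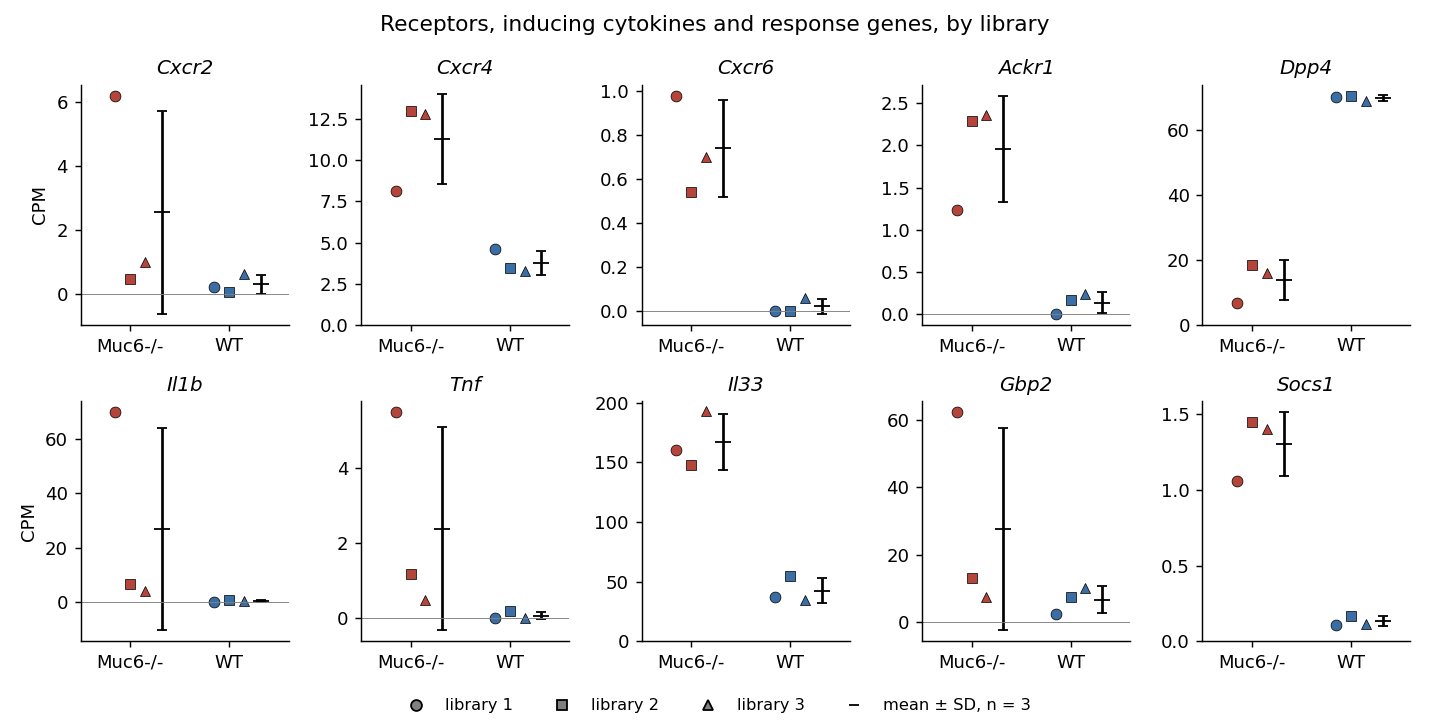
CPM (y axis, linear, own scale per panel) of receptor genes, the chemokine-trimming protease gene Dpp4, inducing cytokine genes and interferon response genes in each Muc6-/- and WT library, with bars for mean ± SD (n = 3). Library 1 of Muc6-/- leads for Cxcr2, Il1b, Tnf and Gbp2, while Il33 and Socs1 are higher in all 3 Muc6-/- libraries than in WT and Dpp4 is lower in all 3.

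Of 12 NF-kappaB factor and feedback genes, all tested, 7 rose and 5 did not pass. The 5 had log2 fold changes of 0.10 (Nfkbia), 0.10 (Nfkbib), 0.64 (Nfkbie), 0.26 (Nfkbiz) and -0.13 (Tnip1), with edgeR adjusted p 0.172 to 0.705. Among all tested genes 19.3% were higher and 19.2% were lower, and none of the list counts in this paragraph was tested against these shares. Bcl3, a nuclear co-regulator of NF-kappaB, rose most, to 39.7, 40.0 and 51.9 CPM in Muc6-/-, against 12.3, 10.5 and 9.22 CPM in WT (log2 fold change 2.04, SE 0.17, edgeR adjusted p = 0.000398). Tnfaip3, the feedback inhibitor A20, was at 26.2, 11.9 and 10.2 CPM in Muc6-/-, against 6.52, 7.14 and 5.63 CPM in WT (edgeR adjusted p = 0.0267). Nfkb1, a subunit gene, rose by 0.64 (SE 0.10, edgeR adjusted p = 0.00252). The count of 7 was 2 without WT library 2 or 3, and was 3 without Muc6-/- library 2 or 3 and 4 without Muc6-/- library 1. Of 4 genes that set the decay of chemokine transcripts, 2 rose, among them Zc3h12a, which encodes an RNase that cuts inflammatory transcripts, by 1.58 (SE 0.35, edgeR adjusted p = 0.0128), and neither was called without WT library 2 or 3. Of 10 receptor genes of the inducing cytokines 3 rose (Tnfrsf1a, Tnfrsf1b and Il17ra), 1 fell (Ifngr1) and 6 did not pass. The call of Ifngr1 (log2 fold change -0.43, edgeR adjusted p = 0.0364) ended with total counts (0.964) and when any 1 library other than WT library 3 was left out (0.0519 to 0.0977) or both libraries numbered 1 (0.0551).

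Of 8 genes of the interferon-gamma response, all tested, 5 rose and 3 did not pass, where 19.3% of all tested genes were higher. Socs1 and Ciita, both among the 5, reached the count filter through Muc6-/- libraries alone, so their being tested already required a difference. Socs1, a feedback inhibitor of cytokine signalling, was at 1.06, 1.45 and 1.40 CPM in Muc6-/-, against 0.109, 0.169 and 0.116 CPM in WT (log2 fold change 3.26, SE 0.52, edgeR adjusted p = 0.00313). Gbp2, a guanylate-binding protein gene, was at 62.2, 13.1 and 7.50 CPM in Muc6-/-, against 2.34, 7.48 and 10.1 CPM in WT, and did not pass. The split of Gbp2, with library 1 high in Muc6-/- and low in WT, is that of Cxcl9 in Muc6-/- but not of Cxcl10.

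Proteases that process chemokines moved in different directions. Dpp4, which trims and inactivates CXCL10 and CXCL12, was at 6.63, 18.3 and 15.8 CPM in Muc6-/-, against 70.1, 70.4 and 68.8 CPM in WT, and fell by 2.36 on the log2 scale (SE 0.36, edgeR adjusted p = 0.00384). Mmp9, a neutrophil and macrophage protease, was at 23.7, 3.41 and 6.50 CPM in Muc6-/- and 0, 0 and 0.174 CPM in WT, 790 counts against 3, a ratio of 199 (95% interval 68.0 to 969, edgeR adjusted p = 0.00667), a call that ended with limma-voom (0.0951). Mmp9 reached the count filter through Muc6-/- libraries alone, so its being tested already required a difference. Adam10, which sheds CXCL16 from the membrane, was at 338, 273 and 244 CPM in Muc6-/- and 283, 294 and 285 CPM in WT, and neither it nor Adam17 passed.

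The genes whose profile over the 6 libraries lay closest to each called member were found by the distance of centred log2 CPM, as a description of likeness. Those of Cxcl2 and of Cxcl5 were the same pair, Cxcl3 (distance 0.39 and 0.95 log2 units) and Il1b (0.75 and 0.98). Cxcl1 lay nearest to Tprg (0.68) and Dio2 (0.86), which, like it, were high in all 3 Muc6-/- libraries. Cxcl10 lay nearest to Bdkrb2 (0.44) and Ppy (0.55), and Cxcl14 to Sod3 (0.50) and Serpine2 (0.74), all 4 of them lowest in library 1 of each genotype. Cxcl16 lay nearest to Foxc1 (0.23) and Celsr1 (0.29), and Cxcl17 to Cmtr1 (0.11) and Mybbp1a (0.15).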

How the data were processed

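The authors' deposited table holds estimated counts, 1 column for each library and 1 row for each gene. No label names the unit, which was read from the table: 28.8% to 34.25% of non-zero values per library carry decimals, and column totals differ. Per the labels' protocols, RNA came from a Nucleospin kit and libraries from a TruSeq Stranded mRNA kit, and per the submitters' processing notes the build was mm10. The aligner, counting program, annotation and use of strand were not named in the sources used. Of 34866 gene identifiers, 34652 matched GENCODE release M21, which is on that build, by identifier, with versions ignored where they differed.

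Counts were rounded, filtered with filterByExpr, scaled with TMM factors and fitted with edgeR 4.0.16 (robust quasi-likelihood, genotype as the only term, Benjamini-Hochberg adjustment over all 14017 genes, threshold 0.05) in R 4.3.3. SE is the log2 fold change divided by the square root of F. Totals of 19839799 to 21354029 counts make 1 count worth about 0.05 CPM. Libraries were grouped by the labels, which do not say that replicates are separate animals, so each p-value reflects spread among these libraries, possibly technical. Pairs within a genotype differed by more than counting noise (chi-square over degrees of freedom 17.1 to 85.4). With 3 against 3, exact permutation reaches 0.1 at best and was not used. Intervals of count ratios are exact binomial at 95%. Exon length is the union of annotated exons.

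Members, lists and tests were chosen with earlier results of these data known. Named genes are Muc6, the members, genes of the pathway lists, markers that are at 0 or that a result turns on, a sex-linked gene and 2 profile neighbours of each called member. Genes beside or overlapping members, and the other markers named, were chosen after values were seen. Alternatives were RLE, upper quartile and total-count scaling, no filter, at least 1 CPM in 3 libraries, limma-voom (limma 3.58.1), DESeq2 1.42.0, a replicate block, and libraries left out.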

Additional observations from a re-analysis of the deposited data

How the results depend on the processing

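Cxcl1, Cxcl16 and Cxcl17 kept their direction and call under all 15 alternatives, and Cxcl2, Cxcl5, Cxcl10 and Cxcl14 kept their direction, with the calls lost given beside each gene. The number of members higher was 3 with limma-voom and 4 to 7 with 1 library left out, and the number lower was 0 to 1, the 1 being Cxcl12 without WT library 1 (-0.67, edgeR adjusted p = 0.0425). The log2 fold change of Cxcl12 turned positive with total counts (0.31), with limma-voom (0.98), with the replicate block (0.50), without WT library 2 (0.07) and without WT library 3 (0.53), and the cause was not tested. Over all genes, total-count scaling moved the median log2 fold change to 0.43 and gave 5730 higher and 1091 lower, against 2699 and 2687, while the 7 called members stayed higher there. Leaving out 1 library gave 1600 (without WT library 2) to 3045 higher and 1721 (without Muc6-/- library 2) to 2964 lower. Libraries share replicate numbers across genotypes, but the deviations of the pairs correlated at 0.26, 0.09 and 0.18, and Muc6-/- library 2 correlated best with WT library 3 (0.29), so the numbers were not taken as pairs. With the replicate block 7 members were higher and 0 lower, and 2572 genes were higher and 2497 lower. The block ended the call of Ifngr1 (edgeR adjusted p = 0.0651). Depth limits Cxcl9, Cxcl11, Cxcl13, Cxcl15 and Ppbp, which the count filter removed. Receptor genes called higher were 5 with DESeq2, against 3, and receptors of the inducing cytokines called higher were 6 with total counts, against 3.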

Other observations

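Genes next to the members were looked at after the members' values were seen. Within 100 kb of the chromosome 5 members, 6 genes that are not ligands were tested, and 1 was called, Scarb2, higher by 0.64 (edgeR adjusted p = 0.0017). Mthfd2l, which lies 25179 bases from Cxcl2, had a log2 fold change of 0.06 (edgeR adjusted p = 0.848). Around Cxcl16, Tm4sf5, a membrane protein gene of digestive epithelia, was higher by 2.11 (edgeR adjusted p = 0.000137), and Psmb6, a proteasome subunit gene, fell by 0.65 on the log2 scale (edgeR adjusted p = 0.00253). Around Cxcl17, Ceacam1, an epithelial adhesion gene, was higher by 2.07 (edgeR adjusted p = 0.000887), while Lipe, which lies 1343 bases away, had 0.16 (edgeR adjusted p = 0.59). Over all members, 7 of 16 such neighbours were higher and 1 was lower, where 19.3% of all tested genes were higher and 19.2% were lower. All of these calls except that of Scarb2 were of genes near Cxcl16 or Cxcl17, and the count was not tested.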
